A study of Mus musculus with 4 samples.

Results

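Solute carriers are membrane proteins that move nutrients, ions and metabolites into and out of cells and organelles, and their genes carry the root symbol Slc. The genes described here are protein-coding, have a symbol made of Slc, a family number, a letter and a member number, and reached a normalized count of 200 or more in at least 1 of 4 RNA-seq libraries. Of 368 protein-coding Slc symbols listed, 147 met this limit, among 9122 protein-coding genes that met it. Because levels in the same libraries chose them, their being detected is a consequence of the rule. The members just inside the limit were Slc39a8 at 200, Slc23a1 at 210 and Slc41a1 and Slc19a1 both at 211 in their highest library, and the genes just under it were Slc35c1 at 199, Slc35e3 at 197 and Slc25a32 at 196.

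The libraries were made from EGFP-positive and Tomato-positive cells sorted from the trachea and the stomach of reporter mice on a C57BL/6 background, which combined Tas2r143-CreERT2 with the Cre reporter Rosa26 flox-mT-stop-flox-mG. In these animals a bacterial artificial chromosome carries the inducible recombinase CreERT2 under the promoter of Tas2r143, a bitter taste receptor gene, and recombination switches the membrane reporter from Tomato to EGFP. Every animal was given tamoxifen for 5 days and was analysed 5 days after the last injection, so both sorts share the transgene, the reporter and the treatment. Cells of 3 mice of 1 transgenic line were pooled for each sort. There was thus 1 library for trachea EGFP, trachea Tomato, stomach EGFP and stomach Tomato each, and no replicate. The EGFP gate took living EGFP-positive cells, whereas the Tomato gate took living, EGFP-negative, Tomato-positive cells that also stained for the epithelial surface protein EpCAM, so only the Tomato cells were selected as epithelial.

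Normalized counts summed to between 9979296 (trachea EGFP) and 15433150 (stomach Tomato). One read was worth 1.61 normalized counts in the trachea EGFP library and 0.786 to 0.816 in the other 3, so the trachea EGFP library was the shallowest, at an estimated 6200000 reads assigned to genes against 17300000 to 18900000. These are not the sequenced reads. Library titles were used for the tissue, since the tissue field of the labels names the opposite one, and the gene table carries the titles. Cyp2f2, which marks club cells, had 8937 and 337775 normalized counts in the trachea EGFP and Tomato libraries and 0 and 69 in those of the stomach. Pgc, which marks chief cells, had 10, 2, 39704 and 992416 in the same order. Lipf, another of the 6 chief cell markers, went the other way, at 924, 53408, 0 and 0. The 16 tuft cell markers summed to 132115 in the trachea EGFP library against 3510 in its Tomato library, and to 177396 against 9717 in the stomach. Both EGFP libraries also held antibody genes, which took 0.352% of the trachea EGFP and 12.9% of the stomach EGFP library against 0.0228% and 0.549% of the Tomato libraries. The 6 fibroblast markers summed to 25749 and 26105 in the Tomato libraries against 478 and 254 in the EGFP libraries, and 8 myeloid markers to 49082 and 19523 against 852 and 83, and what part these cells had in the values below was not tested. In pooled bulk libraries, fewer cells that use a carrier and less of its RNA per cell cannot be told apart.

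Families of solute carriers are grouped by what they carry. The Slc25 family sits mostly in the inner mitochondrial membrane and exchanges nucleotides, phosphate and metabolic intermediates, the Slc1, Slc7 and Slc38 families carry amino acids, Slc2 and Slc5 carry sugars and related molecules, Slc44 carries choline, and Slc4, Slc9, Slc12 and Slc26 move chloride, bicarbonate, sodium and potassium. Slc30 and Slc39 carry zinc and other metals. Epithelial cells of the airway and the stomach use such carriers for fluid and acid secretion as well as for their own nutrition, and cells that release acetylcholine need a supply of choline.

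Mitochondrial carriers were the largest class, with 29 members, followed by carriers of inorganic ions (24), amino acids (17), metals (17), nucleosides and nucleotide sugars (10) and sugars (9). Set on one scale, as normalized counts per kb of exon, the 147 genes summed to 27950 in trachea EGFP, 30410 in trachea Tomato, 26810 in stomach EGFP and 29650 in stomach Tomato. The 4 sums lay close together on this scale, whereas scaled to the library total as CPM, without regard to length, the members took 9219, 7614, 6861 and 5892. The Slc25 family had the highest level of any class in each library, at 15840, 14170, 14060 and 15510 normalized counts per kb. Slc25a5, which exchanges ADP for ATP across the inner mitochondrial membrane, had the highest level per kb in every library, at 6564, 5865, 6860 and 9070, or 23.5%, 19.3%, 25.6% and 30.6% of the sum. Below it the order differed between libraries. Slc25a11, the oxoglutarate carrier of the malate-aspartate shuttle, was second in both EGFP libraries (2457 and 1342 per kb), the ADP/ATP carrier Slc25a4 was second in trachea Tomato (2111 per kb) and the zinc carrier Slc39a1 was second in stomach Tomato (1434 per kb). Slc44a4, placed in the choline class by its family, took the third place in trachea EGFP, at 1515 per kb. Slc25a5 has processed copies elsewhere in the genome, and reads that aligned to several places had been left out, so its level is a lower limit.

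**Figure D1:**
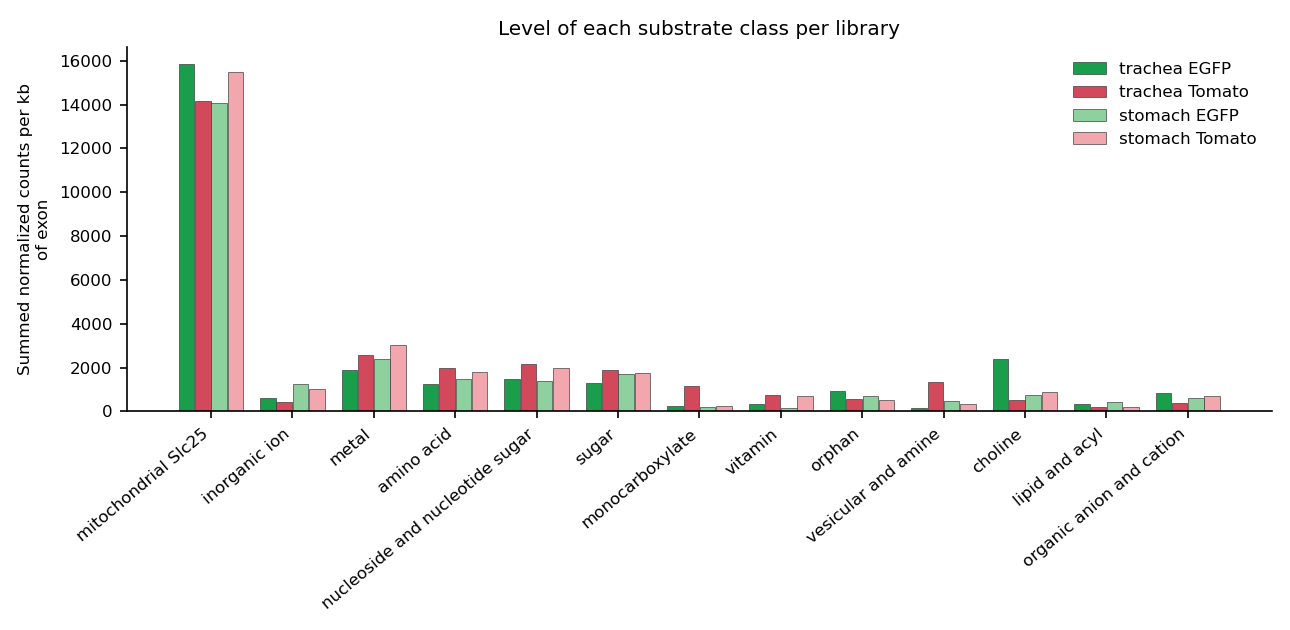
Summed normalized counts per kb of exon (vertical axis from 0), for each carrier class with 4 or more members (horizontal axis) in the 4 libraries, 1 bar per library. The mitochondrial Slc25 bars are the tallest in every library, between 14060 and 15840 per kb, and the choline bar of trachea EGFP (2381 per kb) stands above the other choline bars (511.4 to 882.8 per kb).

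Of the 147 genes, 28 reached 200 in all 4 libraries and 49 reached it in a single library. The highest value of a gene lay in trachea EGFP for 31 genes, in trachea Tomato for 40, in stomach EGFP for 36 and in stomach Tomato for 40. Shares of all 9122 genes were not worked out for these counts, so they cannot be read as a trait of carriers. Between 2.72% and 21.1% were listed at 0: 31 genes in trachea EGFP, 25 in trachea Tomato, 12 in stomach EGFP and 4 in stomach Tomato, where the shares over all 9122 genes were 18.0%, 9.89%, 8.01% and 4.49%. A listed 0 is not proof of absence. Taking 3 estimated reads as the detection floor, 35 members were at or under it in trachea EGFP and 28 in trachea Tomato. For the floor, too, no share of the 9122 genes was worked out.

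The first comparison asked which carriers separated the EGFP from the Tomato sort within a tissue. Ratios were taken as log2((EGFP + 1)/(Tomato + 1)), and the call of higher or lower needed a 4-fold difference and 50 or more in the library with the higher value. In the trachea 35 members were called higher in EGFP cells and 39 lower (23.8% and 26.5%, where 20.2% and 27.4% of the 9122 genes were called). In the stomach 20 were called higher and 32 lower (13.6% and 21.8%, against 11.0% and 16.6%). These shares lay near the background, and single libraries allow no test of them. The median log2 ratio of the members was 0.00 in the trachea and -0.07 in the stomach, where all 9122 genes had medians of -0.21 and -0.03. The medians thus lay near 0 in both tissues, and the differences lay in individual genes.

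**Figure D2:**
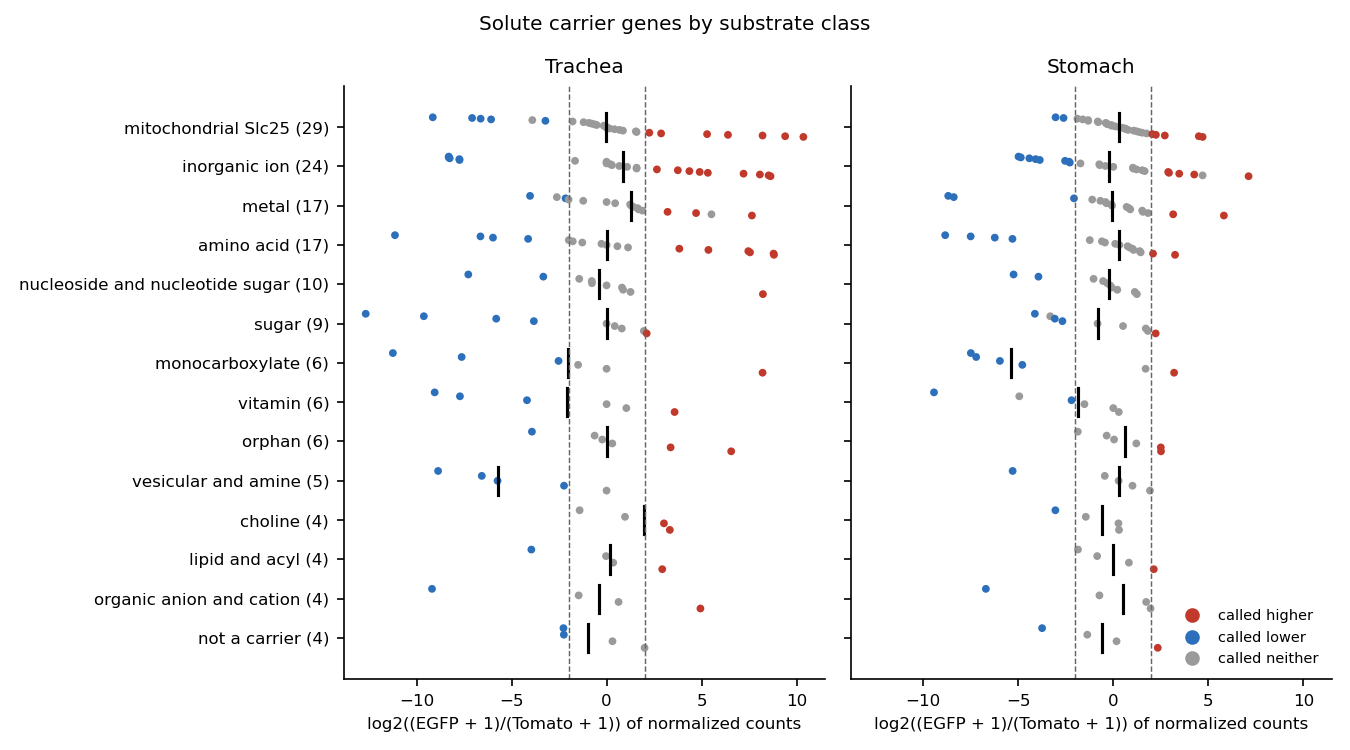
Log2((EGFP + 1)/(Tomato + 1)) of normalized counts (horizontal axis) for each gene of the substrate classes with 4 or more members (vertical axis, with their number), trachea left and stomach right, coloured by the call. Black bars are class medians and dashed lines the 4-fold limit. Genes of nearly every class lie on both sides of 0, from -12.68 to 10.36 in the trachea and from -9.44 to 7.12 in the stomach.

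In all, 9 genes were called higher in EGFP cells of both tissues (6.12%, against 3.83% of all 9122 genes) and 11 lower in both (7.48% against 7.31%). Another 4 were called higher in the trachea and lower in the stomach (2.72% against 2.05%), and 5 the opposite way (3.40% against 2.10%). Of the 9 genes higher in both, 3 carry amino acids. Slc25a20, which brings acylcarnitines into mitochondria for fatty acid oxidation, was at 1316 in trachea EGFP and listed at 0 in trachea Tomato, and at 1990 and 87 in the stomach, a 22.9-fold difference there (95% counting interval 18.8 to 27.9). Slc38a9, a lysosomal amino acid carrier that senses arginine, was at 2427 and 12 in the trachea and at 749 and 78 in the stomach, 202-fold (121 to 358) and 9.60-fold (7.75 to 11.9) higher in EGFP cells. For both genes the EGFP values lay well above the Tomato values in each tissue, as the call required. Slc41a3, of a magnesium carrier family, was at 396 and 0 in the trachea and 375 and 33 in the stomach. The sodium-driven chloride-bicarbonate exchanger Slc4a8 was at 369 and 0 and at 651 and 33. The zinc and manganese carrier Slc39a8 was at 200 and 0 and at 112 and 1. In all 3, the Tomato level of the trachea was listed at 0. Among mitochondrial carriers Slc25a29 (296 and 0, then 141 and 29) and Slc25a44 (700 and 95, then 1217 and 185), both of which carry amino acids, were higher too, and were named after their values were seen. The remaining genes, Slc35e4 (702 and 67, then 141 and 24) and Slc35g1 (940 and 9, then 642 and 113), have no assigned substrate.

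The 11 genes called lower in EGFP cells of both tissues included carriers of osmolytes, glutamate and monocarboxylates. Slc5a3, the sodium-coupled myo-inositol carrier, was listed at 0 in trachea EGFP against 6557 in trachea Tomato, and was at 17 against 314 in the stomach, 18.5-fold lower (11.8 to 29.3). Slc1a3, a glutamate and aspartate carrier, was at 0 against 2256 and at 9 against 754, 83.8-fold lower in stomach EGFP (48.5 to 175). Both were higher in the Tomato library of each tissue, as the call required. Slc16a12, which carries creatine, was at 0 against 2433 and 0 against 148. The lactate and pyruvate carrier Slc16a7 was at 0 against 197 and 9 against 624, and the lysosomal amino acid carrier Slc36a4 was at 2 against 299 and 2 against 544. Ion carriers in the group were Slc22a15 of the organic ion family (0 against 582, then 2 against 313), Slc4a11 of the bicarbonate carrier family (0 against 317, then 2 against 63) and the mitochondrial sodium-calcium exchanger Slc8b1 (0 against 214, then 29 against 146), the last of which was named after its values were seen. The vesicular nucleotide carrier Slc17a9, which loads ATP for release, was at 0 against 466 and 3 against 157. The sugar carrier Slc45a3 (0 against 788, then 127 against 818) and the riboflavin carrier Slc52a3 (0 against 528, then 197 against 909) completed the group. Fibroblast and myeloid markers were higher in both Tomato libraries than in the EGFP libraries, as given above, and their part in the lower values was not tested.

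**Figure D3:**
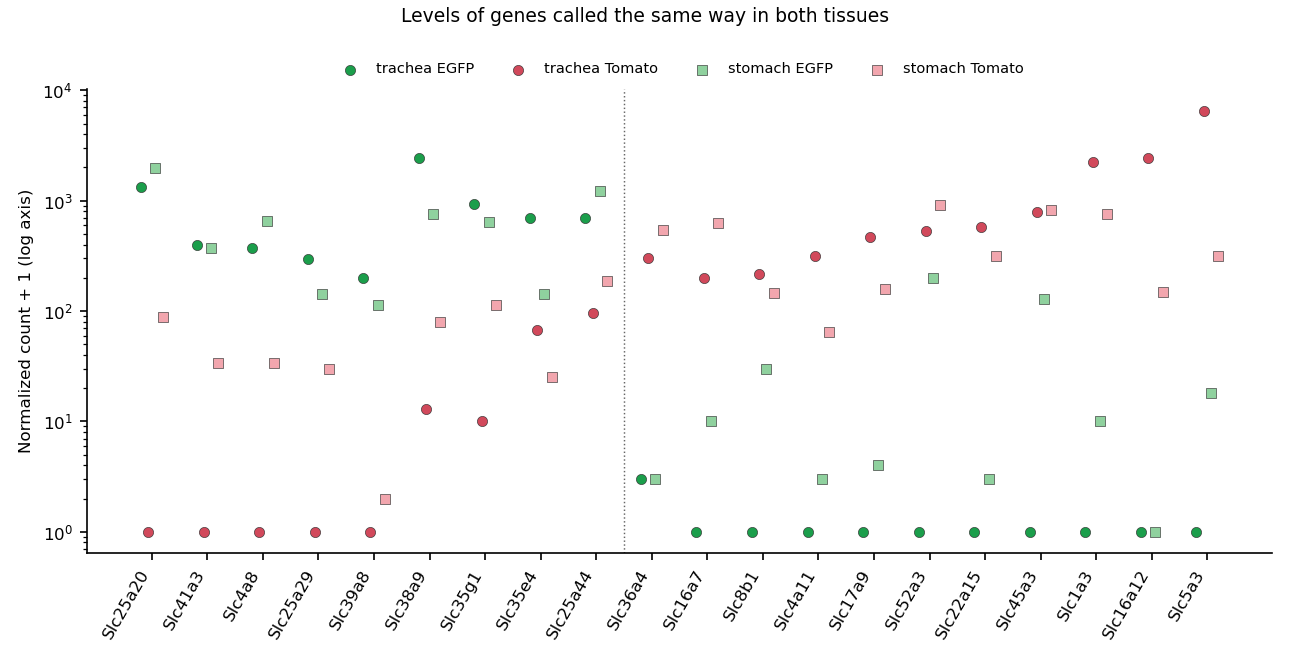
Normalized count + 1 on a log axis (vertical) in the 4 libraries for the 9 genes called higher in EGFP cells of both tissues (left of the dotted line) and the 11 called lower (right). Circles are trachea and squares stomach libraries. As the calls require, each gene's EGFP points lie on 1 side of the Tomato points of the same tissue by at least 4-fold.

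A test over both tissues was possible only by treating the tissues as blocks of a paired design, with a single residual degree of freedom. Its error starts from the disagreement of the ratios of both tissues and is not a spread between replicates. The eBayes step then draws each gene's error towards a trend fitted over all 13023 genes tested. The SE of a gene is therefore not its own disagreement alone, which can be larger or smaller. In this limma fit 4 members passed an adjusted p of 0.05, 2 higher and 2 lower in EGFP cells. That is 1.36% in each direction, where 1.23% and 1.98% of the 9122 genes passed. An unadjusted limma p under 0.05 was found for 8 and 15 members, and the share of the 9122 genes was not worked out. Slc25a20 was higher by 7.43 (SE 1.92) on the log2(value + 1) scale, with a limma adjusted p of 0.00785. Slc38a9 was higher by 5.40 (SE 1.63, limma adjusted p = 0.0419). Slc5a3 was lower, with a difference of -8.40 (SE 2.22, limma adjusted p = 0.0101), and Slc1a3 with one of -8.69 (SE 2.35, limma adjusted p = 0.0138). All 4 depended on the fit, since none passed with a pseudocount of 0.1, without the filter on low genes, with a filter at 500, without the trend or without the tissue block. Their limma adjusted p ranged from 0.00721 to 0.816 for Slc25a20, 0.0274 to 0.793 for Slc38a9, 0.00515 to 0.816 for Slc5a3 and 0.00683 to 0.793 for Slc1a3 over the alternatives.

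The promoters of these genes are shown because they were the 4 that passed limma between the sorts. Each line gives the 250 bases before the RefSeq start site in GRCm38.p6, 5′ to 3′ on the gene's strand, and capitals mark the GC box, GGGCGG on either strand, the core of the binding site of Sp1-type factors. The windows lie at chr9:108661886-108662135 on the plus strand for Slc25a20, chr13:112660516-112660765 on the plus strand for Slc38a9, chr16:92058072-92058321 on the plus strand for Slc5a3 and chr15:8710808-8711057 on the minus strand for Slc1a3.
Slc25a20: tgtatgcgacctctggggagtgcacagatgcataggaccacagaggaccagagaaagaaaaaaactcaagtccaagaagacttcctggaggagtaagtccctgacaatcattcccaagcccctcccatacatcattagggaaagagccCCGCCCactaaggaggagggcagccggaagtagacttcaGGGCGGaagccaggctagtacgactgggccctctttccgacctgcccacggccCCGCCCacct
Slc38a9: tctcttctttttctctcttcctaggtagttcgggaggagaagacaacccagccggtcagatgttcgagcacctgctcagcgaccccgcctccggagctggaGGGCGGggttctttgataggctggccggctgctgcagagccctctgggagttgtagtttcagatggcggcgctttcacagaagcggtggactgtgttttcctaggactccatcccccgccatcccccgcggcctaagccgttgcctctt
Slc5a3: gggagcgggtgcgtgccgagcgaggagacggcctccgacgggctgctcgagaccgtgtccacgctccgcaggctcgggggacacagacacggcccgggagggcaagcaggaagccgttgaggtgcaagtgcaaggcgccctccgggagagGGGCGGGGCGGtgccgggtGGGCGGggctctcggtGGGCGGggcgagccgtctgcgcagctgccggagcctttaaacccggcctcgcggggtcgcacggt
Slc1a3: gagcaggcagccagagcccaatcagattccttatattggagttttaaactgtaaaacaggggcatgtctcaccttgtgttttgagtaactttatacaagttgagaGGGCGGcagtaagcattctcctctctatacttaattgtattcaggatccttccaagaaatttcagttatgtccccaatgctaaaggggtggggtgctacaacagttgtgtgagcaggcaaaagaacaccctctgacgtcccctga
The box stood in all 4 windows, in 1 copy for Slc38a9 and Slc1a3, in 3 copies for Slc25a20 and, counting an overlapping pair as 2, in 4 copies for Slc5a3. A window was matched for 107 of the 147 genes, and 72.0% of these genes held the box. The share was 64.1% of 7065 protein-coding genes at 200 or more with a window and 35.4% of all 27025 genes with one. A gene with several windows counted once, if any of them held the box. Among genes with a window, 5 of 8 higher in both tissues held it and 5 of 6 lower in both. The octamer ATGCAAAT, the sequence bound by POU factors such as the tuft cell regulator Pou2f3, was found for 0 of the 107 genes and for 1.67% of the 7065. These matches describe letters in a short window, and both directions of change carried the GC box.

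The mitochondrial carriers held genes of both directions. Their median log2 ratio was -0.01 in the trachea and 0.31 in the stomach, with 7 higher and 5 lower of 29 in the trachea and 5 higher and 2 lower in the stomach. For this and every class or gene list below, the shares of all 9122 genes called in EGFP against Tomato cells are the measure. They were 20.2% higher and 27.4% lower in the trachea, and 11.0% and 16.6% in the stomach. The ADP/ATP and phosphate carriers differed by less than the 4-fold limit. Slc25a5 was at 10804, 9653, 11291 and 14930 in trachea EGFP, trachea Tomato, stomach EGFP and stomach Tomato, an order used for all sets of 4 values from here on. The mitochondrial phosphate carrier Slc25a3 was at 6632, 6689, 2287 and 5737, and Slc25a4 was at 2153, 4968, 995 and 2482. Slc25a4 was 2.31-fold lower in trachea EGFP than in trachea Tomato (2.18 to 2.45) and 2.49-fold lower in the stomach (2.34 to 2.67), differences that exceeded counting error but not the limit. Slc25a36, a pyrimidine nucleotide carrier, was at 5932, 9236, 4484 and 2900. Slc25a11 went the other way, at 5209, 1097, 2844 and 2032, and was 4.75-fold higher in EGFP cells of the trachea (4.45 to 5.06) and 1.4-fold higher in the stomach (1.33 to 1.47). Slc25a47 was at 675, 0, 14 and 25, so that its trachea EGFP value stood alone.

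Genes of the Slc44 family, classed as choline carriers by family only, differed in the trachea. Choline uptake was not measured. All 4 Slc44 genes at 200 or more were detected in every library, with a median log2 ratio of 1.99 in the trachea and -0.59 in the stomach, and 2 of them were called higher in trachea EGFP. Slc44a4 was at 4715, 581, 1271 and 1056, which is 8.12-fold higher in EGFP than in Tomato cells of the trachea (7.48 to 8.82) and 1.20-fold in the stomach (1.12 to 1.30). Slc44a3 was at 2799, 277, 1258 and 1023, a 10.1-fold difference in the trachea (9.01 to 11.4) and 1.23-fold in the stomach (1.14 to 1.33). In the stomach the 2 sorts thus had like levels of both genes. Slc44a1, the choline carrier of most tissues, was at 1820, 930, 657 and 1802, and Slc44a2 was at 440, 1180, 85 and 709, 8.34-fold lower in stomach EGFP than in stomach Tomato (6.83 to 10.3). Whether the ratios of the tissues differ cannot be tested with 1 library each. The carriers that nerve cells use for the acetylcholine cycle, the high-affinity choline carrier Slc5a7 and the vesicular acetylcholine carrier Slc18a3, were listed at 0 in all 4 libraries, although Chat, the enzyme that makes acetylcholine, was at 1137, 162, 75 and 0. Slc18a3 lies within the Chat locus but shares 0 exon bases with it in the annotation. Of 10 enzymes of choline and acetylcholine metabolism, 1 was called higher and 2 lower in EGFP cells of each tissue. Choline kinase Chka was at 31, 648, 109 and 412 and Chpt1, which completes phosphatidylcholine synthesis, at 90, 2430, 13 and 483. Both were lower in the EGFP than in the Tomato library of each tissue, Chka in the stomach by less than the limit.

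Amino acid carriers split by gene. Of 17, 6 were called higher and 4 lower in trachea EGFP, and 2 higher and 4 lower in stomach EGFP. Slc38a6 was at 1233, 6, 80 and 44, 206-fold higher in EGFP cells of the trachea (105 to 543). The neutral amino acid carrier Slc1a4 was at 617, 14, 9 and 7, 44.1-fold higher there (27.6 to 77.8). Both stood out in trachea EGFP and were low elsewhere. Slc43a2, which carries branched-chain amino acids, was at 443, 0, 112 and 42 and Slc7a7, the light chain of a cationic and neutral amino acid exchanger, at 448, 0, 245 and 229. The heavy chain of that exchanger, Slc3a2, which several Slc7 light chains need to reach the membrane, was at 34, 2206, 1831 and 2477. It was 64.9-fold lower in trachea EGFP than in trachea Tomato (42.6 to 106) and 1.35-fold lower in the stomach (1.28 to 1.43), and it did not pass limma over both tissues (adjusted p = 0.107). In trachea EGFP the light chain was thus higher and the heavy chain lower than in trachea Tomato. The light chain Slc7a5 stayed under 200 in every library, at 0, 127, 3 and 138. The cationic amino acid carrier Slc7a1 was at 285, 5011, 405 and 200 and was highest in trachea Tomato. Slc38a2, a glutamine carrier, was at 320, 777, 1518 and 2303, and Slc38a5 was detected in stomach Tomato alone, at 461.

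Sugar carriers included the general glucose carrier Slc2a1, at 1549, 358, 1603 and 1123. It was 4.33-fold higher in EGFP than in Tomato cells of the trachea (3.86 to 4.85) and 1.43-fold in the stomach (1.33 to 1.53). The 2 EGFP libraries thus had like levels of it. The sodium-glucose carrier Slc5a1 was at 132, 1893, 0 and 9, a trachea gene with its highest level in Tomato cells, and Slc2a10 was at 0, 55, 2160 and 461, a stomach gene with its highest level in EGFP cells. Together, 1 of 9 sugar carriers was called higher and 4 lower in trachea EGFP, and 1 and 3 in stomach EGFP. The 6 monocarboxylate carriers of the Slc16 family had median log2 ratios of -2.02 in the trachea and -5.38 in the stomach. Only Slc16a6 was called higher in trachea EGFP, at 296, 0, 497 and 152, while 3 were called lower. In stomach EGFP 1 was called higher and 4 lower, among the latter Slc16a1, the main lactate carrier, at 0, 0, 9 and 275, and Slc16a11, at 390, 1107, 0 and 180. Slc16a1 was thus listed at 0 in both trachea libraries.

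Of the ion carriers, 9 of 24 were called higher and 5 lower in EGFP cells of the trachea, against 5 higher and 8 lower in the stomach. The basolateral chloride-bicarbonate exchanger Slc4a2 was at 625, 20, 700 and 342 and was 31.2-fold higher in EGFP than in Tomato cells of the trachea (20.6 to 48.3) and 2.05-fold in the stomach (1.82 to 2.31). Slc12a2, the sodium-potassium-chloride cotransporter that loads secretory cells with chloride, was at 106, 16, 281 and 470. Slc12a7, a potassium-chloride cotransporter, was at 470, 22, 157 and 258. In the trachea all 3 were higher in EGFP cells, whereas in the stomach the 2 cotransporters had their higher value in Tomato cells. The sodium-proton exchangers Slc9a4, at 147, 0, 28 and 848, and Slc9a2, at 5, 1, 7 and 253, were highest in stomach Tomato. The 7 parietal cell markers summed to 10112, 1213, 6849 and 18593, and Clic6 took 7342 of the trachea EGFP sum. In the stomach 2 of them (Kcnq1 at 409 against 71 and Vegfb at 304 against 33) were called higher in EGFP cells and 1 lower (Aqp4 at 2 against 70). Atp4a (2102 against 4906), Atp4b (2953 against 11629), Kcne2 (69 against 272) and Clic6 (1010 against 1612) were lower there by less than the limit. What part parietal cells had in the Slc9a4 and Slc9a2 levels was not tested. The anion carriers Slc26a7 and Slc26a9 were at 0 in all libraries and at 0, 0, 11 and 33, and the airway phosphate carrier Slc34a2 did not exceed 5. Slc26a2, a sulfate carrier, was at 259, 122, 3983 and 520, 7.66-fold higher in stomach EGFP than in stomach Tomato (7.05 to 8.33), and the sodium-bicarbonate cotransporter Slc4a7, at 219, 180, 1241 and 167, was 7.43-fold higher (6.41 to 8.62). Both peaked in stomach EGFP. Kinases that regulate cation-chloride cotransporters, 6 genes of the Wnk, Stk39 and Oxsr1 families, held 2 called higher and 1 lower in the trachea and 1 higher in the stomach. Wnk2 was at 4555, 18, 1413 and 145 and passed limma over both tissues (adjusted p = 0.00374). Of 6 sodium pump subunits 1 was called higher and 2 lower in the trachea and 0 in the stomach. Among 6 carbonic anhydrases, which supply bicarbonate, 0 were higher and 1 and 3 lower in EGFP cells of trachea and stomach, with Car8, a catalytically inactive member, at 366, 3143, 1 and 825 (limma adjusted p = 0.0173). For Wnk2 and Car8 only the main limma fit was examined, and the members that passed it depended on its settings.

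**Figure D4:**
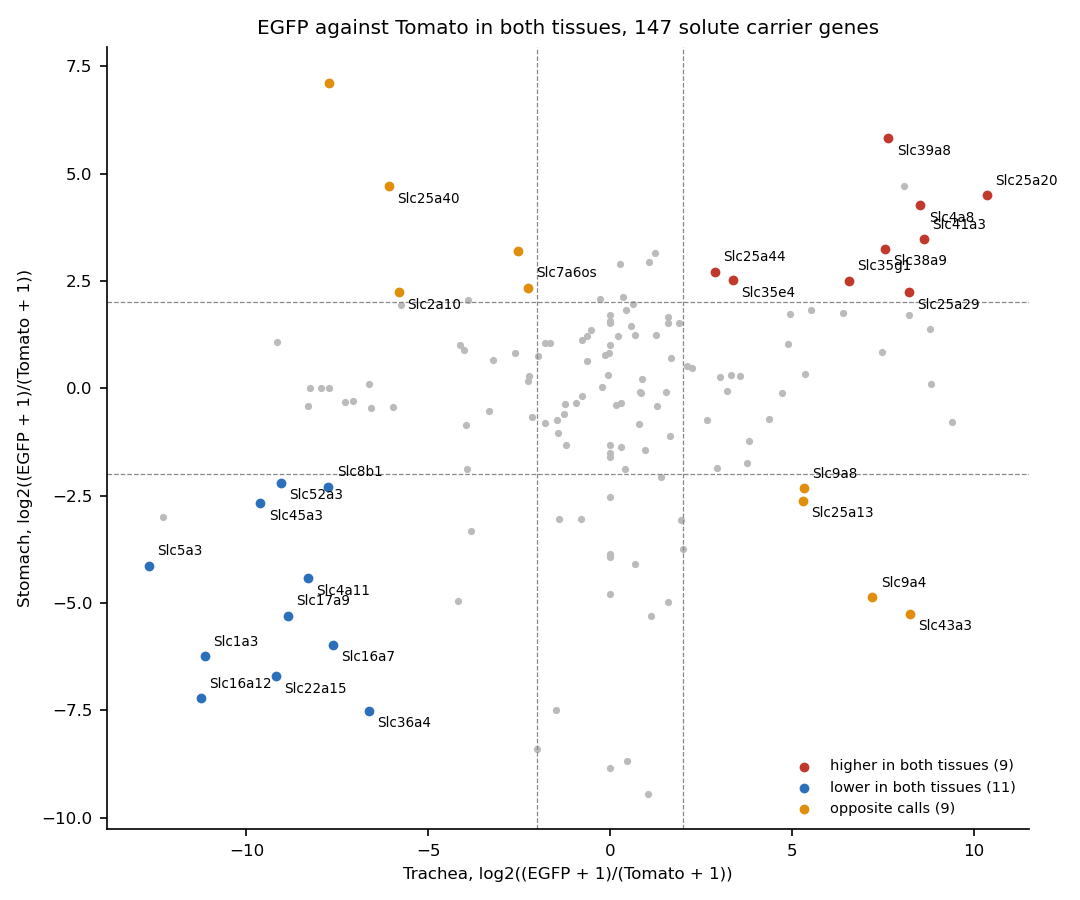
Log2((EGFP + 1)/(Tomato + 1)) in the trachea (horizontal axis) against that in the stomach (vertical axis) for the 147 genes, 1 point per gene, coloured by whether a gene was called higher in both, lower in both, opposite or otherwise. The 9 genes called higher in both lie top right and the 11 called lower in both lie bottom left, and the 9 with opposite calls lie in the other 2 corners.

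Metal carriers showed 3 of 17 higher and 2 lower in trachea EGFP and 2 higher and 3 lower in stomach EGFP. The zinc importer Slc39a1 had the highest normalized counts of the class, at 1673, 3924, 2649 and 3390. Slc39a4, which takes up zinc in the gut, was at 60, 996, 1168 and 628, and the zinc carrier Slc30a6 was at 728, 78, 150 and 158. The first of these was thus low and the second high in trachea EGFP. The iron exporter Slc40a1 was at 229, 167, 0 and 412, and Slc11a1, a metal carrier of phagosomes, was at 0, 3, 0 and 336. The 8 myeloid markers summed to 852, 49082, 83 and 19523, with Lyz2 at 470, 35491, 0 and 5413 and C1qb at 0, 542, 0 and 4611. These markers thus peaked in different libraries, and their part in the Slc11a1 level was not tested. The copper carriers Slc31a1 (327, 132, 508 and 674) and Slc31a2 (1190, 448, 127 and 535) were detected throughout. Of 8 iron and zinc proteins 1 was called higher and 2 lower in the trachea and 0 and 2 in the stomach. Metallothionein Mt1 was at 800, 2868, 2812 and 15365 and so was lower in the EGFP library of each tissue.

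Of 5 vesicular and amine carriers, 4 were called lower and 0 higher in EGFP cells of the trachea, where 27.4% and 20.2% of the 9122 genes were. Slc18a2, which loads monoamines into vesicles, was at 19, 1896, 458 and 625, 99.8-fold lower in trachea EGFP (56.1 to 190) and 1.36-fold lower in stomach EGFP (1.22 to 1.52). Its relative Slc18a1 was at 0, 0, 319 and 158. The sialic acid carrier Slc17a5 was at 572, 2700, 308 and 254 and the creatine carrier Slc6a8 at 6, 373, 1367 and 358. In the stomach Slc6a8 was thus highest in EGFP cells. The 9 endocrine cell markers summed to 96, 497, 779 and 264011, and the histamine enzyme Hdc was at 0, 184, 33 and 5057, values whose part in the Slc18 levels was not tested. Among organic cation carriers Slc22a21, a carnitine carrier, was at 2431, 78, 616 and 185, 31.2-fold higher in EGFP cells of the trachea (25.5 to 38.9) and 3.33-fold in the stomach (2.87 to 3.87). The related carnitine carrier Slc22a5 was at 171, 110, 224 and 57. Carnitine is the partner of the fatty acids that Slc25a20 brings into mitochondria, and Slc25a20 and Slc22a21 were both higher in EGFP than in Tomato cells of each tissue, Slc22a21 in the stomach by less than the limit. Slc22a21 and Slc22a5 are paralogs, so reads from identical stretches would have been left out of both.

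The remaining classes were small. Slc15a2, a peptide carrier, was at 0, 4999, 0 and 7, a level far above the others in trachea Tomato. Slc14a1, a urea carrier, was at 0, 244, 0 and 0. The folate carriers Slc46a1 (53, 985, 0 and 30) and Slc19a1 (0, 0, 73 and 211) had opposite tissues. Of 10 nucleoside and nucleotide sugar carriers 1 was called higher and 2 lower in the trachea and 0 and 2 in the stomach, and Slc35a1, which brings CMP-sialic acid into the Golgi, was at 1805, 1032, 690 and 727. The fatty acid carrier and activating enzyme Slc27a1 was at 1024, 803, 1869 and 426, 4.39-fold higher in EGFP cells of the stomach (3.99 to 4.83) and 1.28-fold in the trachea (1.15 to 1.41). A further 4 members are not carriers in spite of their symbols. The most abundant, Slc9a3r1, an adaptor that holds sodium-proton exchangers at the apical membrane, was at 604, 2871, 1381 and 1230. Slc7a6os was at 42, 206, 1853 and 365, Slc9a3r2 at 3, 0, 24 and 335 and Slc4a1ap at 56, 45, 93 and 242.

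The second comparison asked which carriers differed between trachea and stomach within a sort. In EGFP cells 25 members were called higher in the trachea and 41 lower (17.0% and 27.9%, against 14.9% and 21.6% of all 9122 genes). In Tomato cells 21 were called higher and 50 lower (14.3% and 34.0%, against 18.3% and 21.7%). The median log2 ratio of trachea to stomach was -0.69 in EGFP cells and -0.89 in Tomato cells, where all 9122 genes had medians of -0.11 and -0.01. By this median members tended to lie lower in the trachea. Their sum as CPM went the other way, at 9219 and 7614 in trachea EGFP and Tomato against 6861 and 5892 in stomach EGFP and Tomato. Ion carriers of Tomato cells had the lowest median of the larger classes, -3.76, with 4 of 24 higher and 13 lower in the trachea. Metal carriers followed at -1.98, with 0 of 17 higher and 8 lower. In trachea Tomato 25 members were listed at 0 against 4 in stomach Tomato, where 9.89% and 4.49% of the 9122 genes were. These libraries held 13555 and 16174 genes above 0, and their 10 highest genes took 15.7% and 37.9% of the total.

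Called the same way in both sorts were 5 members higher in the trachea (3.54% of the 9122 genes were) and 20 lower (7.03%). The 5 were Slc25a37, Slc16a11, Slc35g2, Slc5a1 and Slc46a1. Slc25a37, mitoferrin, which brings iron into mitochondria for haem and iron-sulfur clusters, was at 2472, 3545, 219 and 85, 11.3-fold higher in the trachea in EGFP cells (9.91 to 12.8) and 41.7-fold in Tomato cells (34.4 to 51.2). Both trachea libraries lay above both stomach libraries. It was the single member to pass limma over both sorts, higher in the trachea by 4.43 (SE 1.16, adjusted p = 0.0135), that is 0.680% of members where 0.888% of the 9122 genes passed, and its adjusted p ranged from 0.00691 to 0.806 over the alternatives. In the other direction 0 members passed limma, where 1.43% of the 9122 genes did. An unadjusted limma p under 0.05 was found there for 17 members, and the share of the 9122 genes was not worked out. Red blood cell precursors use much mitoferrin, and 5 red blood cell markers summed to 217, 0, 224 and 338, the part of which in the Slc25a37 level was not tested. Slc35g2, with no assigned substrate, was at 667, 785, 116 and 113 and was level between the sorts of each tissue.

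The 20 members lower in the trachea in both sorts came from 10 classes, 5 of them mitochondrial carriers and 4 metal carriers. Slc26a2 (259, 122, 3983 and 520), another sulfate carrier, Slc26a11 (0, 0, 748 and 260), the zinc, iron and manganese importer Slc39a14 (0, 0, 472 and 159) and Slc35e2 (10, 16, 1250 and 541) were among them. In each of these the stomach EGFP library was the highest. Slc2a10 had the smallest p among them and did not pass limma (-7.06, adjusted p = 0.0556). Slc39a11, another zinc importer, was at 164, 52, 835 and 1801, and its highest value lay in stomach Tomato. A 4-fold call in both sorts chose these genes, so the gap between the trachea pair and the stomach pair follows largely from that choice.

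**Figure D5:**
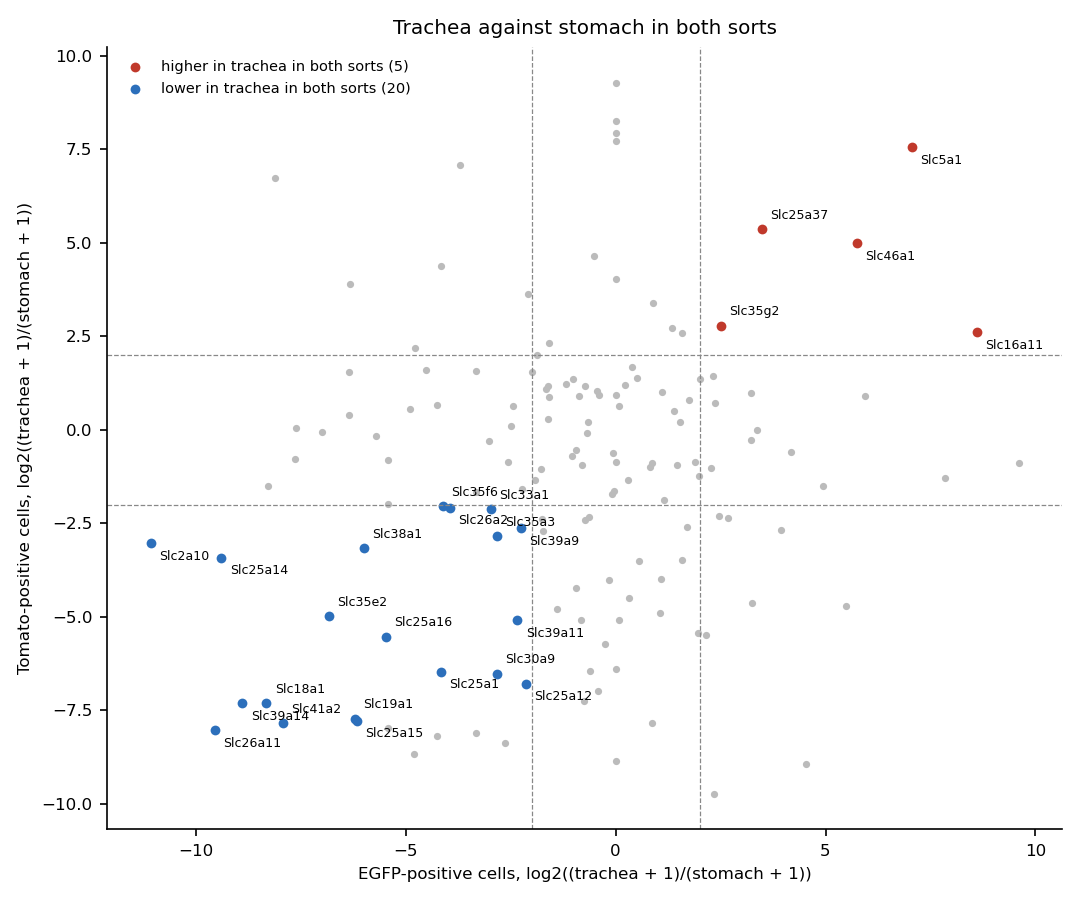
Log2((trachea + 1)/(stomach + 1)) in EGFP-positive cells (horizontal axis) against that in Tomato-positive cells (vertical axis) for the 147 genes, 1 point per gene, coloured by genes called the same way in both sorts. The 20 genes lower in the trachea in both sorts lie bottom left and the 5 higher ones top right.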

How the data were processed

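RNA was sequenced from 4 pooled sorts, and libraries were grouped by their titles. The authors prepared cDNA with SMART-Seq v4, which does not mark strand, trimmed reads with Reaper, aligned them with STAR 2.4.0a to GRCm38 (mm10) and counted them over exons with featureCounts 1.4.5-p1. Reads that fell on more than one gene or mapped to more than one place were dropped. Per the file headers and values, the signal the authors deposited is a normalized count, divided by a factor per library and rounded, and the sources used here do not state where the factor came from. No molecular identifiers were used, so intervals and floors cover counting error only.

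Members and gene lists were chosen with earlier results of these data known. Substrate classes follow the family, and Slc4a1ap was moved to the symbols that are not carriers after its place was noticed. The genes named were the 6 highest and 6 lowest ratios of each pair, the 3 most abundant of each class, those passing limma, a list of choline, amine, gastric, airway and general carriers, and those nearest the limit of 200. Others are said to have been named after their values were seen.

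Log2 ratios used a pseudocount of 1 (calls from 4-fold, at least 50 in the higher library). Reads were estimated from the worth of 1 read in each library, and 95% intervals of ratios are exact binomial. Both tissues or both sorts were tested with limma 3.58.1 (R 4.3.3, eBayes with trend) on log2(value + 1) over the 13023 genes that reached 50 in any library, adjusted by Benjamini-Hochberg. The fit had 1 residual degree of freedom, which holds the interaction of sort and tissue. The fit and the estimate of the worth of 1 read were tested on simulated data. Levels per kb used the summed exon length of GENCODE M21. Of the 147 members 103 shared no exon base with another gene and 3 shared over 25%. Some items are not reported here. Promoters came from RefSeq. Other settings tried are given at the end.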

Additional observations from a re-analysis of the deposited data

Results flagged for a closer look

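In 9 solute carrier genes, the EGFP against Tomato calls of the 2 tissues went opposite ways. The difference between the tissues was not tested, because it is the residual of a design with 1 library per group. Values are log2 ratios in the trachea and the stomach, given for 7 of them. The sodium-proton exchangers Slc9a4 (7.21 and -4.87) and Slc9a8 (5.33 and -2.33) were higher in EGFP cells of the trachea and lower in those of the stomach. Among mitochondrial carriers, the aspartate-glutamate carrier Slc25a13 was at 5.29 and -2.62, and Slc25a40 at -6.08 and 4.70. The purine base carrier Slc43a3 was at 8.23 and -5.25, the glucose carrier family member Slc2a10 at -5.81 and 2.23 and Slc7a6os, which is not a carrier, at -2.27 and 2.34. In 4 of the 9 the trachea ratio was positive and in 5 negative.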

How the results depend on the processing

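The 214 called values of named genes were each recomputed with pseudocounts of 0.1 and 10 and with 2 scalings to one total. The second scaling left out antibody genes and the 10 highest genes of each library. Of 856 values 831 kept direction and size and 25 fell under the 4-fold limit, 8 of them with the pseudocount of 10, 10 and 7 with the scalings. A pseudocount of 0.1 can only widen a called ratio, and none of the settings was large enough to turn one. That 0 fell with 0.1 and 0 turned was thus fixed in advance. Counts moved most with the limits themselves, for which fewer genes or other folds enter by construction. They follow in the order EGFP higher and lower in the trachea, EGFP higher and lower in the stomach, trachea higher and lower in EGFP cells, and trachea higher and lower in Tomato cells. A minimum of 500 in the higher library gave 17, 21, 12, 10, 12, 20, 13 and 7. Genes above 0 in all 4 libraries, an alternative chosen after seeing the data, gave 23, 18, 12, 10, 16, 26, 9 and 29. Members from 500 gave 20 higher in trachea EGFP, 13 higher and 15 lower in stomach EGFP, 25 lower in the trachea in EGFP cells, and 13 higher and 22 lower in Tomato cells, while members from 100 gave 49 lower in stomach EGFP. A 2-fold limit gave 47 higher in stomach EGFP, 40 higher in trachea EGFP than in stomach EGFP and 38 higher in trachea Tomato than in stomach Tomato, and an 8-fold limit 9 and 16 for the first 2. In limma the 4 calls between sorts went to 0 with a pseudocount of 0.1, no filter, a filter at 500, no trend or no block, and the 1 call between tissues went to 0 with the same settings except the filter at 500. The cause was not tested. Setting all libraries to one total moved log2 ratios by 0.58 in the trachea, 0.18 in the stomach and 0.45 between EGFP libraries. The groups hold 1 library each and no replicate numbers, so the tissue or the sort served as the block of limma. Leaving out 1 library leaves no pair or no residual degree of freedom.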

Other observations

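Of the 368 solute carrier symbols, 221 stayed under 200 in every library and 147 reached it. Of all 22018 protein-coding genes listed, 9122 reached it, which is a similar share. Of the 221, 99 were listed at 0 in all 4 libraries and 68 reached 50 in at least 1. Shares of all protein-coding genes were not worked out for these last counts.

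Carriers with other symbols were looked at as well. Of 21 such genes found, 2 were called higher and 4 lower in EGFP cells of the trachea, where 20.2% and 27.4% of the 9122 protein-coding genes at 200 or more were, and 5 higher and 2 lower in the stomach, where 11.0% and 16.6% were. Values are given for trachea EGFP, trachea Tomato, stomach EGFP and stomach Tomato. Ank, a pyrophosphate and ATP exporter, was at 4093, 566, 120 and 7, and Slco4a1, an organic anion carrier, at 480, 0, 886 and 167. Both were higher in the EGFP library of each tissue. The mitochondrial carrier Ucp2 was at 5861, 8125, 10611 and 11595 and the pyruvate carrier subunit Mpc1 at 610, 450, 473 and 378, all within the 4-fold limit. Spns1, a lysosomal lipid carrier, was at 5, 1061, 285 and 520 and so was lowest in trachea EGFP.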
